A study of Mus musculus with 6 samples.

Results

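Cck and Penk encode the precursors of 2 families of signalling peptides, and Cckar, Cckbr, Oprd1, Oprm1 and Oprk1 encode the receptors that bind them. These 7 genes were found among the 24749 genes of the table through their Ensembl identifiers, and each symbol matched 1 identifier. Cck and Penk were chosen by their opposite knockout differences in these same FPKM values, Cck higher and Penk lower, so that difference is given as a description and without a test. The receptors were taken in as receptors of these peptides. RNA was sequenced from whole mouse kidneys of mixed strain, dissected at E15.5 in embryonic development. The 3 knockout libraries carry Foxd1cre with homozygous floxed alleles of Yap (Yap1) and Taz (Wwtr1), labelled Foxd1cre; Yapc/c;Tazc/c, and the 3 wild-type libraries are labelled as Cre negative. The sources used here do not say whether the Cre-negative embryos carry floxed alleles or whether animals were pooled. Foxd1 drives Cre in the stromal progenitors of the kidney, so epithelia, endothelium and nerves keep both genes unless they descend from that lineage.

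Cholecystokinin is a peptide hormone of the gut and a neuropeptide of the brain. It is cut from its precursor, amidated and sulfated, and it signals through CCKAR, which prefers the sulfated peptide, and CCKBR, which also binds gastrin. Proenkephalin is cut at pairs of basic residues into enkephalins, short opioid peptides that act on the delta receptor OPRD1 and the mu receptor OPRM1, while the kappa receptor OPRK1 prefers dynorphins. Penk is also transcribed outside the nervous system, in mesenchyme of developing organs, and has been used as a marker of medullary stroma in the embryonic kidney.

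The coding sequences show what each transcript delivers, and 4 stretches are given, with the bases of the peptide in capitals and the neighbouring codons in lower case. The Cck stretch lies in exon 3 of Cck-201, at chr9:121490107-121490130, and the Penk stretches lie in exon 2 of Penk-201, all on the minus strand of GRCm38.
CCK-8 in Cck: GACTACATGGGCTGGATGGATTTT
Met-enkephalin, copy 1 in Penk, chr4:4134328-4134354: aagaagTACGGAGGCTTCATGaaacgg
Met-enkephalin, copy 6 in Penk, chr4:4133842-4133868: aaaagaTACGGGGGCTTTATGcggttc
Leu-enkephalin in Penk, chr4:4133935-4133961: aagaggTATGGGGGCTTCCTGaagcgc
The 115 codons of Cck-201 hold the CCK-8 sequence 1 time. The 268 codons of Penk-201 hold 7 enkephalin units, 6 of Met-enkephalin and 1 of Leu-enkephalin. A pair of basic codons stands before each of the 7 units and on both sides of 5 of them. Copies of the same pentapeptide differ in their codons, and the 7 units have 6 distinct base sequences. One Penk transcript can therefore yield several opioid peptides, whereas a Cck transcript encodes the octapeptide at a single place.

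The floxed genes were examined first. Levels are in FPKM (fragments per kilobase, on the authors' scaling between libraries). Wwtr1 measured 20.2, 17.7 and 18.5 FPKM in wild-type libraries 1 to 3 and 13.5, 12.8 and 12.2 in knockout libraries 1 to 3. It fell to 68.4% of wild type (limma adjusted p = 0.0235), a call that did not hold when wild-type library 2 was left out (limma adjusted p = 0.0701) or knockout library 1, 2 or 3 (0.0682, 0.115 and 0.117). Yap1 measured 45.5, 52.7 and 54.9 FPKM in wild-type and 48.7, 43.2 and 44.2 FPKM in knockout libraries, and its difference did not pass the test (limma adjusted p = 0.378). On the authors' scaling, each library corresponded to about 12800000 to 15700000 fragments, by an approximation from the lowest values. Kidney identity was clear from its defining markers, with 88.7, 85.0 and 88.1 FPKM summed over 6 nephron progenitor genes in wild-type and 97.0, 93.6 and 89.1 FPKM in knockout libraries.

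Wild-type library 3 stands apart from the other 5 libraries in nerve transcripts. It was the highest of the 6 libraries for 16 of 17 nerve and chromaffin genes and for all 8 secretory granule genes. The summed level of the nerve and chromaffin genes was 174 FPKM there, against 21.8 and 19.5 FPKM in the other wild-type libraries and 18.4 to 21.9 FPKM in knockout libraries. Th, the rate-limiting enzyme of catecholamine synthesis, stood at 17.8 FPKM in wild-type library 3 and at 0.038 to 0.0918 FPKM in the other 5. Tubb3, a neuronal tubulin, measured 31.1 FPKM against at most 1.20, Gap43, a growth cone protein, 31.6 against at most 6.80, and Elavl4, a neuronal RNA-binding protein, 6.31 against at most 5.65. Chgb, the granule protein chromogranin B, reached 27.4 FPKM against at most 0.227. Schwann cell genes were mixed, with 5 of 8 highest in this library, a sum of 23.7 FPKM there and sums of 14.3 to 18.1 FPKM elsewhere. Of these, Erbb3, a neuregulin receptor that other cell types also make, lay at 8.77 FPKM within the range of the other 5, and Fabp7, a lipid-binding protein of immature glia, at 8.68 against at most 3.93. Because Cck and Penk are themselves transcribed in neurons and chromaffin cells, values for wild-type library 3 are given for them and their receptors. Differences without that library are given for Cck, Penk, the tested receptors and some of the gene lists.

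Cck (ENSMUSG00000032532, chromosome 9, 121489824 to 121495694, GRCm38) was higher in every knockout library than in any wild-type library. It measured 2.27, 1.79 and 1.08 FPKM in wild-type libraries 1 to 3 and 4.53, 6.41 and 5.24 FPKM in knockout libraries 1 to 3. Wild-type library 3, with its high nerve transcripts, had the lowest Cck of all 6. Group means were 1.72 ± 0.599 FPKM (SD, n = 3) in wild-type and 5.39 ± 0.949 FPKM (SD, n = 3) in knockout kidneys, a 3.14-fold higher mean. The difference of mean log2(FPKM + 1) was 1.25, and 1.07 without wild-type library 3. Adding a pseudocount of 1 compresses differences at this level, and with 0.1 the value was 1.64.

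Few fragments stand behind the Cck values, since its transcripts are short. With the longest annotated transcript of 799 bp, the wild-type values correspond to about 23, 20 and 12 fragments and the knockout values to about 53, 66 and 66. With the shortest, of 385 bp, they correspond to 6 to 11 and 26 to 32 fragments. Both readings leave wild-type libraries below knockout libraries, but a wild-type value rests on at most about 23 fragments. With a 6-library mean of 3.55 FPKM, Cck lay above 50.6% of all genes in the table, near the middle of the distribution.

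Penk (ENSMUSG00000045573, chromosome 4, 4133531 to 4138819) was far more abundant, and it was lower in every knockout library than in any wild-type library. It measured 75.9, 58.8 and 55.0 FPKM in wild-type libraries 1 to 3 and 41.2, 40.7 and 35.8 FPKM in knockout libraries 1 to 3. Wild-type library 3 nevertheless lay closer to knockout library 1 than to wild-type library 1. Group means were 63.2 ± 11.1 FPKM (SD, n = 3) and 39.2 ± 2.99 FPKM (SD, n = 3), so that knockout kidneys held 62.0% of the wild-type level. The difference of mean log2(FPKM + 1) was -0.66, and -0.76 without wild-type library 3. Without wild-type library 1, the highest, it was -0.53.

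Penk ranked high in the embryonic kidney, above 93.1% of all genes by its 6-library mean of 51.2 FPKM. Its values correspond to about 762 to 1408 fragments on the longer transcript of 1449 bp. Of its exonic bases, 14.3% (233 bp) are shared with A830012C17Rik, a non-coding transcript on the opposite strand, and the sources used here do not say whether the library kit kept strand. A830012C17Rik measured 2.35, 1.72 and 1.35 FPKM in wild-type and 1.58, 1.32 and 1.33 FPKM in knockout libraries, levels well below those of Penk. In bulk tissue, fewer Penk-expressing cells and less Penk RNA per cell cannot be told apart, and the same holds in reverse for Cck.

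The proportion of Penk to Cck follows from the choice of the pair and is given for its size. Penk exceeded Cck 33.4-fold, 32.8-fold and 50.7-fold in wild-type libraries 1 to 3, on the per-length FPKM scale. In knockout libraries 1 to 3 it exceeded Cck 9.10-fold, 6.35-fold and 6.84-fold. Among the wild-type libraries the genes kept the same order, with library 1 highest and library 3 lowest for both. On the log2(FPKM + 1) scale, library 3 minus the mean of wild-type libraries 1 and 2 was -0.54 for Cck and -0.28 for Penk. The same difference was above 0 for 16 of 17 nerve and chromaffin genes, from 0.52 for Slc18a1 and 0.70 for Elavl4 to 4.41 for Tubb3, and was -0.46 for Pnmt, the adrenaline-forming enzyme of chromaffin cells. The part of nerve or chromaffin cells in the Cck and Penk values was not tested.

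**Figure D1:**
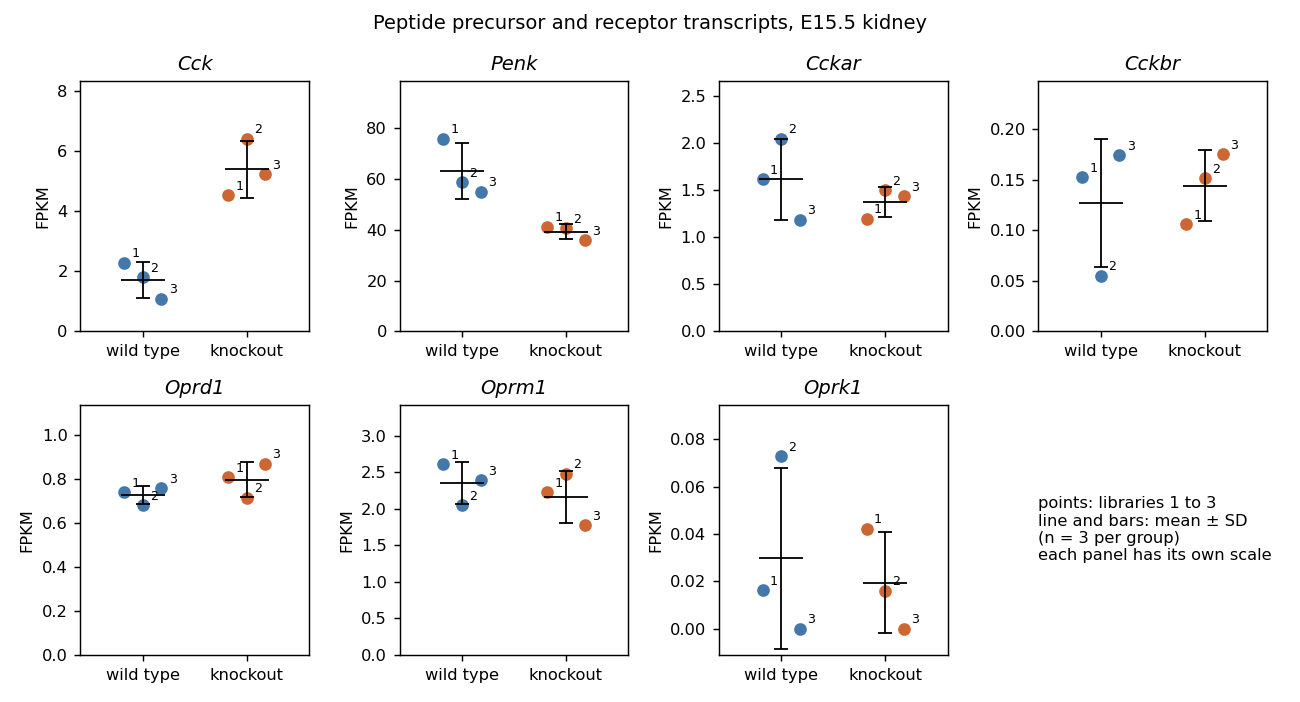
FPKM of the 7 genes in each library (points, numbered by library) with the group mean and SD (n = 3 per group), each panel on its own vertical scale. Cck lay between 1.08 and 2.27 FPKM in wild-type and between 4.53 and 6.41 FPKM in knockout libraries, Penk between 55.0 and 75.9 and between 35.8 and 41.2 FPKM, and the groups overlapped for all 5 receptors.

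**Figure D2:**
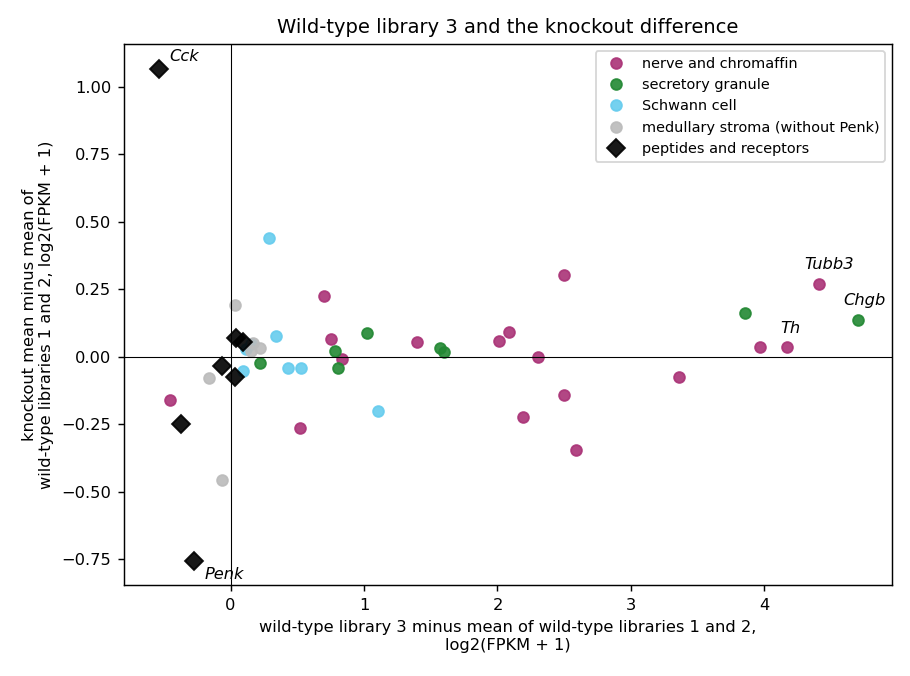
Each point is a gene. The horizontal axis gives wild-type library 3 minus the mean of wild-type libraries 1 and 2, and the vertical axis the knockout mean minus that same mean, both in log2(FPKM + 1). All 8 granule genes and 16 of 17 nerve and chromaffin genes lie right of 0, up to 4.70 for Chgb, with Pnmt at -0.46 as the exception, and Cck (-0.54, 1.07) and Penk (-0.28, -0.76) lie left of 0.

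The receptors were tested, and none passed. Of the 5, Cckar, Oprd1 and Oprm1 reached the mean of 0.5 FPKM needed to enter the fit, and 0 were called. Across all 16899 genes fitted, 0.604% were called lower and 0.13% higher (limma with Benjamini-Hochberg adjustment, adjusted p under 0.05). At an unadjusted p under 0.05 the number of receptors was also 0, against 16.1% of all genes fitted. For each receptor a two-sided exact permutation test, over 20 assignments of the libraries, was added, although 3 libraries against 3 cannot go below p = 0.1. The wild-type and knockout libraries overlapped for each of the 5 receptors. Most genes fitted overlapped too, since 11.8% lay lower without overlap and 12.5% higher without overlap. Cckbr and Oprk1 were not among the genes fitted, and Oprk1, listed at 0 in a library of each group, could only overlap. Cck and Penk, picked for this contrast, are left out of these counts.

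Among the cholecystokinin receptors, Cckar (chromosome 5, 53697776 to 53707705) was the one detected at an appreciable level. It measured 1.62, 2.05 and 1.19 FPKM in wild-type and 1.20, 1.50 and 1.44 FPKM in knockout libraries. The highest and the lowest value both came from wild-type libraries. Its log2 difference was -0.13, with a 95% confidence interval from -0.45 to 0.19 (limma adjusted p = 0.682, exact permutation p = 0.5, 0.8 adjusted over the 5 receptors). The interval reaches from a decrease to a smaller increase. Without wild-type library 3, which had the lowest Cckar, the log2 difference was -0.25 (limma adjusted p = 0.306). Cckbr (chromosome 7, 105425731 to 105470898) stood near the floor, at 0.152, 0.0548 and 0.174 FPKM in wild-type and 0.106, 0.151 and 0.175 FPKM in knockout libraries. These values correspond to about 2 to 7 fragments per library on the longest transcript of 2573 bp. A difference in Cckbr was not detectable at this depth (log2 difference 0.02, exact permutation p = 0.8, 0.8 adjusted over the 5 receptors).

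Oprm1 (chromosome 10, 6758506 to 7038198), the mu receptor gene, had the highest level of the opioid receptors. It measured 2.61, 2.05 and 2.39 FPKM in wild-type and 2.23, 2.48 and 1.78 FPKM in knockout libraries, and the groups overlapped. Its log2 difference was -0.09, with a 95% confidence interval from -0.36 to 0.19 (limma adjusted p = 0.753, exact permutation p = 0.6, 0.8 adjusted over the 5 receptors). Without wild-type library 3 the difference was -0.08 (limma adjusted p = 0.802). Oprm1 has 31 annotated transcripts, between 242 and 2420 bp, so the fragments behind a value depend on which are present, and 96 bp of its exons are shared with Ipcef1 on the opposite strand. Ipcef1 measured 3.21 to 4.36 FPKM in the 6 libraries.

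Oprd1 (chromosome 4, 132110726 to 132144486), the delta receptor gene and the main target of enkephalins, was detected in every library at a steady low level. It measured 0.740, 0.682 and 0.759 FPKM in wild-type and 0.808, 0.716 and 0.871 FPKM in knockout libraries. On its single annotated transcript of 4021 bp this is about 37 to 55 fragments per library. Its log2 difference of 0.06 had a 95% confidence interval from -0.16 to 0.28 (limma adjusted p = 0.8, exact permutation p = 0.3, 0.8 adjusted over the 5 receptors). Without wild-type library 3 the difference was 0.07 (limma adjusted p = 0.745). Oprk1 (chromosome 1, 5588466 to 5606131), the kappa receptor gene, was listed at 0.0162, 0.0728 and 0 FPKM in wild-type and 0.0422, 0.0161 and 0 FPKM in knockout libraries. This is at most about 5 fragments in a library on the longest transcript of 4675 bp, so a difference was not detectable (exact permutation p = 0.7, 0.8 adjusted over the 5 receptors).

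The order of the 7 genes by level, on the per-length FPKM scale, differed between the genotypes at 1 place. That place is the one of Cck, which was chosen for its higher knockout values, so the change is given as a description. In wild-type kidneys Penk (63.2 FPKM) was followed by Oprm1 (2.35), Cck (1.72) and Cckar (1.62), whose libraries overlapped from one gene to the next, and then by Oprd1 (0.727), Cckbr (0.127) and Oprk1 (0.0297). In knockout kidneys Cck (5.39) stood second, with its 3 libraries above all libraries of Oprm1 (2.16), which in turn lay above those of Cckar (1.38). Oprd1 (0.798), Cckbr (0.144) and Oprk1 (0.0194) followed in the same order as in wild type.

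Of 3 further receptor genes for these peptides, 2 were abundant and tested, and limma called 0 of them. At an unadjusted p under 0.05, which 16.1% of all genes fitted reached, 1 was higher and 1 lower. Ogfr, a nuclear-associated receptor of Met-enkephalin, measured 38.5, 39.8 and 42.0 FPKM in wild-type and 43.1, 46.0 and 45.4 FPKM in knockout libraries. Its log2 difference of 0.16 was not called (limma adjusted p = 0.24). Ackr3, an atypical chemokine receptor that scavenges opioid peptides, measured 37.1, 31.2 and 30.4 FPKM in wild-type and 28.4, 27.5 and 29.7 FPKM in knockout libraries, a log2 difference of -0.19 that was not called either (limma adjusted p = 0.304). The genotypes did not overlap for either gene, as for 11.8% of all genes fitted on the lower and 12.5% on the higher side. The remaining gene of this list, the nociceptin receptor gene Oprl1, did not reach 0.5 FPKM on average. Its highest value, 0.816 FPKM, came from wild-type library 3, against at most 0.159 FPKM elsewhere.

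The genes that make, store, degrade and transduce these peptides were counted in lists. Of 68 pathway genes in 6 lists, 47 were tested, and limma called 0 lower and 0 higher. At an unadjusted p under 0.05, 4 were lower and 7 higher, together 23.4% of those tested, against 16.1% of all genes fitted. The median log2 difference over all genes fitted was -0.002.

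Of 21 other neuropeptide precursor genes 7 were tested, 0 were called, 6 lay above 0 and 1 below, and their median was 0.06 (0.15 without wild-type library 3). Trh, the thyrotropin-releasing hormone precursor, measured 2.12, 1.85 and 2.94 FPKM in wild-type and 2.70, 3.19 and 4.04 FPKM in knockout libraries (log2 difference 0.39, limma adjusted p = 0.297). Nts, the neurotensin precursor, measured 8.46, 7.41 and 5.55 against 7.53, 8.93 and 9.22 FPKM (log2 difference 0.24, limma adjusted p = 0.439). The opioid precursors related to Penk were low: Pomc lay between 2.22 and 2.91 FPKM in all 6 libraries, Pnoc between 0.683 and 0.925 and Pdyn, the dynorphin precursor, between 0.136 and 0.491. Gast, the gastrin gene and nearest relative of Cck, was listed at 0 in 4 libraries, at 0.244 FPKM in wild-type library 3 and at 0.218 FPKM in knockout library 3. Npy, a neuropeptide of sympathetic nerves named after its values were seen, measured 37.4 FPKM in wild-type library 3 and 5.81 to 7.98 FPKM in the other 5.

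Of 12 processing and sulfation genes 10 were tested and 0 called, with 3 above 0, 7 below and a median of -0.08. Pcsk5, a proprotein convertase, measured 14.1, 13.7 and 14.3 FPKM in wild-type and 12.1, 11.9 and 11.0 FPKM in knockout libraries, without overlap as for 11.8% of all genes fitted (log2 difference -0.25, limma adjusted p = 0.152). Ctsl, the protease cathepsin L, which takes part in proenkephalin cleavage, measured 55.5, 50.6 and 47.4 against 56.0, 55.4 and 55.5 FPKM (log2 difference 0.12, limma adjusted p = 0.399). The classical neuroendocrine convertases differed in level. Pcsk1 did not exceed 0.267 FPKM in any library, and Pcsk2 lay between 4.22 and 5.93 FPKM. The carboxypeptidase gene Cpe (14.4 to 19.0 FPKM), the amidating enzyme gene Pam (25.8 to 29.2 FPKM) and the sulfotransferase genes Tpst1 (17.8 to 20.9 FPKM) and Tpst2 (12.6 to 14.8 FPKM) were detected in every library.

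The storage compartment looked different, because it followed wild-type library 3. Of 8 secretory granule genes 4 were tested and 0 called, all 4 below 0 with a median of -0.81, which became 0.11 without wild-type library 3. Scg3, a granin family member, measured 0.288, 0.195 and 2.68 FPKM in wild-type and 0.250, 0.324 and 0.238 FPKM in knockout libraries (log2 difference -0.49, limma adjusted p = 0.653). Chgb, given above for wild-type library 3, had a log2 difference of -1.43 (limma adjusted p = 0.677).

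Of 10 peptide-degrading enzyme genes all were tested and 0 called, with 5 above 0, 5 below and a median of 0.02. Tpp2, a tripeptidyl peptidase that inactivates CCK-8, measured 56.7, 52.1 and 53.2 FPKM in wild-type and 44.4, 49.3 and 44.0 FPKM in knockout libraries (log2 difference -0.23, limma adjusted p = 0.172). Dpp3, an enkephalin-degrading dipeptidyl peptidase, measured 28.4, 33.0 and 33.1 against 36.1, 38.2 and 36.9 FPKM (log2 difference 0.23, limma adjusted p = 0.194). Neither gene overlapped between the genotypes, against 11.8% of all genes fitted lower and 12.5% higher without overlap. Mme, the enkephalinase neprilysin, measured 30.1, 19.8 and 17.3 against 21.9, 20.6 and 19.7 FPKM, with the wild-type libraries on both sides of the knockout ones.

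All 14 genes of receptor signalling (G protein subunits, phospholipases, arrestins and receptor kinases) were tested and 0 called, with 8 above 0, 6 below and a median of 0.03. Grk2, a receptor kinase, measured 11.1, 14.3 and 13.5 FPKM in wild-type and 16.0, 15.6 and 16.4 FPKM in knockout libraries (log2 difference 0.29, limma adjusted p = 0.204). Gna11, a G protein alpha subunit of the kind that CCK receptors use, measured 11.9, 15.3 and 17.4 against 20.7, 18.9 and 18.2 FPKM (log2 difference 0.37, limma adjusted p = 0.245).

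**Figure D3:**
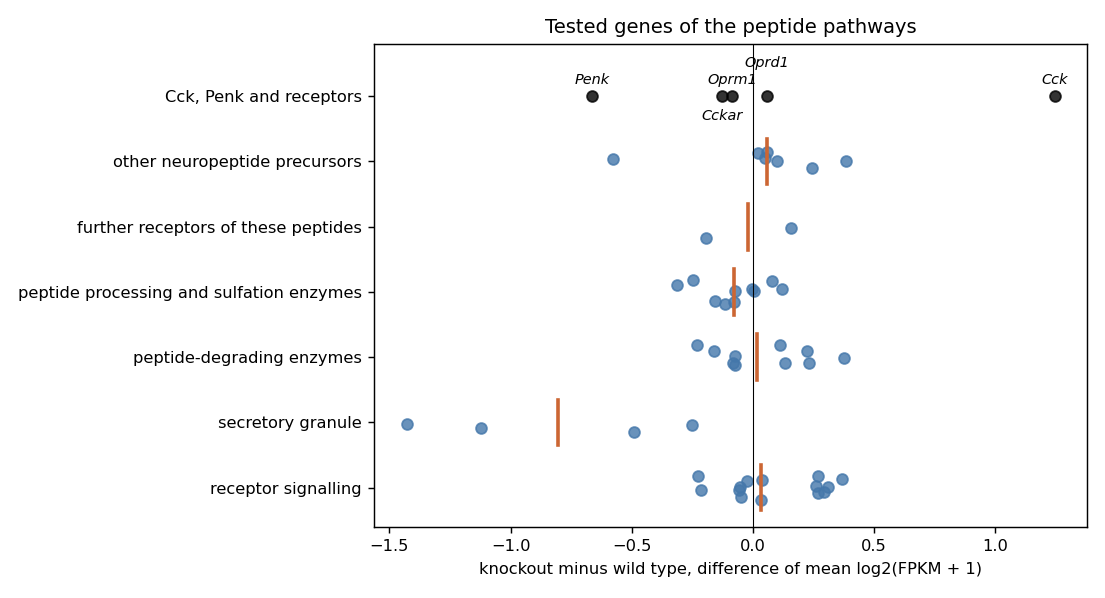
Knockout minus wild type in mean log2(FPKM + 1) for each tested gene (points) of Cck, Penk and their receptors and of 6 pathway lists, with each list's median as a bar. Cck (1.25) and Penk (-0.66) lie at the ends of the top line with the receptors near 0, and the secretory granule genes have a median of -0.81, or 0.11 without wild-type library 3.

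Markers of the cells that could carry the transcripts were set beside them. For comparison, 16.1% of all genes fitted had an unadjusted p under 0.05, in either direction. Of 6 medullary stroma genes other than Penk, 0 were called by limma, 1 was lower and 1 higher at an unadjusted p under 0.05, 1 lay above 0 and 5 below, and the median was -0.03 (0.03 without wild-type library 3). Their summed level was 340, 409 and 426 FPKM in wild-type and 369, 364 and 395 FPKM in knockout libraries, but 1 gene, the cell cycle inhibitor Cdkn1c, made up 276 to 360 FPKM of it. Without Cdkn1c, a choice made after seeing the values, the other 5 genes summed to 63.7, 65.6 and 65.9 FPKM in wild-type and 62.8, 58.2 and 61.6 FPKM in knockout libraries. Each knockout library then lay below each wild-type library, as was also the case for 11.8% of all genes fitted taken singly. Tnc, the matrix protein tenascin C, had the largest decrease of these 5 genes and alone was lower without overlap. It measured 17.4, 18.3 and 17.0 FPKM in wild-type and 14.4, 11.6 and 12.4 FPKM in knockout libraries (log2 difference -0.43, limma adjusted p = 0.0826). Alx1, Lef1 and Snai2 overlapped between the genotypes, with log2 differences of -0.03, -0.004 and -0.03. Wnt5a, a secreted signal, measured 8.59, 9.26 and 9.15 against 10.5, 9.79 and 10.7 FPKM (log2 difference 0.18, limma adjusted p = 0.265). The lower sum of the 5 genes thus rests on Tnc and is not a decrease shared by them. The part of these cells in the Penk difference was not tested.

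Other stromal lists had called members. Of 10 cortical stroma genes 2 passed the threshold on the lower side, where 0.604% of all genes fitted did, and 0 passed it on the higher side. At an unadjusted p under 0.05, which 16.1% of all genes fitted reached, the list had 5 lower and 1 higher member. In all, 4 members lay above 0 and 6 below, with a median of -0.09. Aldh1a2, the retinoic acid-forming enzyme, was that higher member, with 89.1 to 100.8 FPKM in wild-type and 102.9 to 111.4 FPKM in knockout libraries (log2 difference 0.15, limma adjusted p = 0.31). The called genes were Ntn1, encoding netrin-1 (log2 difference -1.62, limma adjusted p = 0.00138), and Sfrp1, a secreted Wnt antagonist that measured 23.1, 18.7 and 23.8 FPKM in wild-type and 12.6, 11.1 and 11.0 FPKM in knockout libraries (log2 difference -0.86, limma adjusted p = 0.0127). The Sfrp1 call was lost without knockout library 2 or 3 (limma adjusted p = 0.0713 and 0.0626). Foxd1, the driver gene, was not called, at 6.9, 6.9 and 9.2 FPKM in wild-type and 5.2, 4.0 and 4.3 FPKM in knockout libraries (log2 difference -0.65, limma adjusted p = 0.0886). The Cre driver and the loss of the floxed genes differ together between the groups and cannot be told apart. Of 9 genes of ureteric mesenchyme and smooth muscle, 2 lay above 0 and 7 below with a median of -0.26, 3 were lower and 0 higher at an unadjusted p under 0.05, and 1 was called lower, Acta2, smooth muscle actin (log2 difference -0.84, limma adjusted p = 0.023). The Acta2 call was kept when knockout library 3 was left out and lost when any other library was (limma adjusted p between 0.0543, for wild-type library 3, and 0.126). Myocd, a co-activator of smooth muscle genes, had the next smallest p in that list (log2 difference -0.34, limma adjusted p = 0.228).

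In the nephron progenitor (6 genes), ureteric epithelium (6) and podocyte (6) lists limma called 0, with medians of 0.07, 0.24 and 0.11. At an unadjusted p under 0.05 the ureteric epithelium list had 4 higher members, the podocyte list 2 higher and 1 lower and the nephron progenitor list 1 higher. Such a p was reached by 16.1% of all genes fitted. All 6 nephron progenitor and all 6 ureteric epithelium genes lay above 0, and of the podocyte genes 5 did and 1 lay below. The members with the smallest p had log2 differences of 0.17 for Sall1 and 0.18 for Six2, transcription factors of nephron progenitors, 0.22 for Calb1, a calcium-binding protein, and 0.25 for Hoxb7, a transcription factor, both of the ureteric epithelium, and 0.30 for Wt1, a transcription factor, in podocytes. Of the nerve and chromaffin list 15 genes were tested, 0 were called and 1 had an unadjusted p under 0.05, and the median moved from -0.77 to 0.04 without wild-type library 3. Its smallest p values belonged to Slc18a1, a vesicular monoamine transporter (log2 difference -0.44, limma adjusted p = 0.232), and Stmn2, a neuronal microtubule regulator (log2 difference -1.21, limma adjusted p = 0.528). Of 8 Schwann cell genes 4 were tested and 0 called, and Erbb3 alone had an unadjusted p under 0.05 (log2 difference 0.34, limma adjusted p = 0.182). Adrenal cortex genes, which would mark adhering adrenal tissue, were low, and 5 of 6 were highest in wild-type library 3. Their sum was 5.74 FPKM there and 3.90 to 4.15 FPKM in the other 5 libraries. The exception was Star, a cholesterol transporter gene, at 3.08 to 3.66 FPKM in all 6 libraries. The other 5 genes summed to 2.54 FPKM in wild-type library 3 and to 0.486 to 0.815 FPKM elsewhere, with Hsd3b1, a steroid dehydrogenase gene, at 1.22 against at most 0.162 FPKM.

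Genes with the most similar course over the 6 libraries were sought for each precursor. Likeness was the root mean square difference between profiles of log2(FPKM + 1), each centred on its own mean. The 14360 genes compared averaged 1 FPKM or more in either genotype. Genes without a symbol and genes with names of predicted genes were left out. Genes chosen this way share the knockout difference of the precursor by construction. Nearest to Cck was Rergl, a Ras-like protein of smooth muscle, at a distance of 0.24. Rergl measured 5.06, 5.60 and 3.58 FPKM in wild-type and 8.82, 9.55 and 9.79 FPKM in knockout libraries. The next 4 were Tspy-ps, Mir7578, Rnase12 and Spint4, at distances of 0.26 to 0.34, and like Cck each was lowest in wild-type library 3. Tspy-ps and Spint4 averaged 1 FPKM or more in the knockout group alone. They stood at 0 and 0.122 FPKM in wild-type library 3, so their low point there lies at or near the floor. With wild-type library 3 left out, 0 of these 5 genes stayed among the nearest 5. Rergl then ranked 11, and the other 4 ranked between 34 and 110.

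Penk had closer neighbours. Sytl2, a Rab-binding protein of vesicle transport, was nearest at a distance of 0.07, with 10.2, 8.81 and 7.95 FPKM in wild-type and 5.12, 5.61 and 4.96 FPKM in knockout libraries. Slitrk6, a transmembrane protein known from neurons, followed Penk at a distance of 0.09, with 3.20, 2.63 and 2.34 against 1.32, 1.09 and 1.15 FPKM. The other three were the small RNA genes Rnu12, Snord22 and Snord15b, at distances of 0.08 to 0.10, whose values were also highest in wild-type library 1. Rnu12, the spliceosomal U12 RNA, measured 805, 591 and 538 FPKM in wild-type and 401, 434 and 414 FPKM in knockout libraries. Of the nearest 5 genes, Sytl2 alone stayed among them without wild-type library 3, and the others then ranked between 7 and 14.

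The TEAD core motif, to which the partners of YAP and TAZ bind, was sought in the promoters that RefSeq gives on GRCm38.p6, in windows of 300 bases around the transcript start. The letters CATTCC, on either strand, were found in 14.7% of the 32851 windows counted, which leave out 1 chromosome that holds none of the 7 genes. The windows cover 4 of the 7 genes, and Penk, Cckar and Oprk1 were not analysed here. The letters were found in 0 of 1 window of Cck, of Cckbr and of Oprd1, and in 1 of 3 windows of Oprm1. Sites outside these windows were not sought.

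Over 12 other settings the difference of Cck lay between 1.07 and 1.64 and that of Penk between -0.76 and -0.53. Their sign could not turn when a library was left out, since both were chosen by this contrast and their groups do not overlap, so the ranges describe size and give no support to the direction. For the tested receptors the values lay between -0.25 and -0.01 for Cckar, between -0.16 and 0.004 for Oprm1 and between 0.03 and 0.12 for Oprd1. At their low levels a pseudocount of 1 compresses differences, as for Cck. With 0.1 the values were -0.19 for Cckar, -0.12 for Oprm1 and 0.12 for Oprd1.

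**Figure D4:**
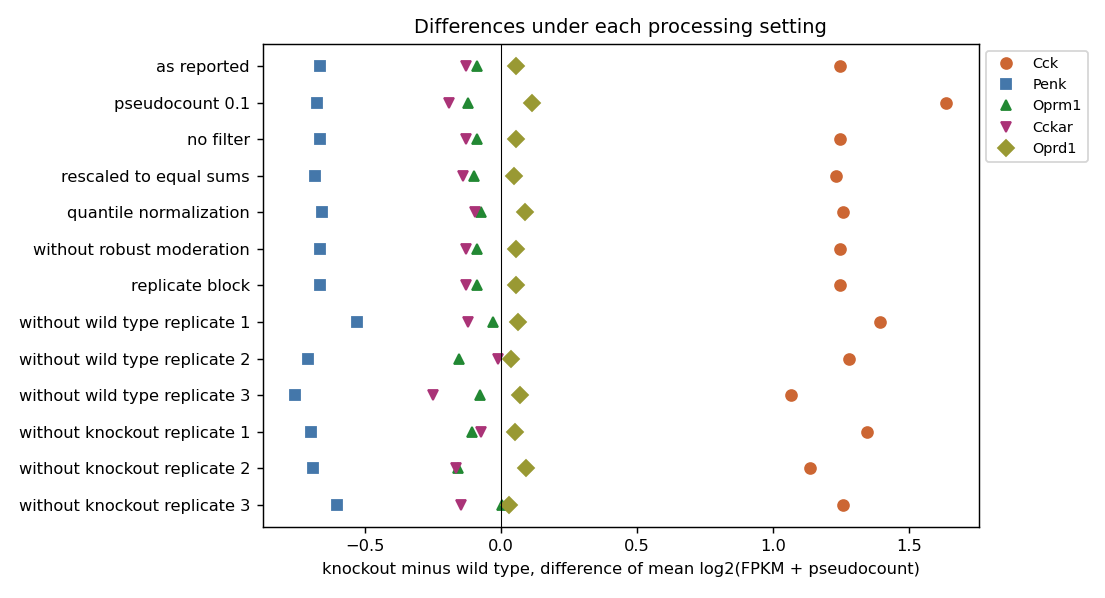
Difference of mean log2(FPKM + pseudocount), knockout minus wild type, for Cck, Penk and the 3 tested receptors under the reported setting and 12 others. Cck stays to the right of 1 (1.07 to 1.64), Penk between -0.76 and -0.53, and the receptors between -0.25 and 0.12.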

How the data were processed

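RNA-seq of 3 knockout and 3 wild-type kidney libraries was analysed. The authors deposited FPKM values for 24749 genes. The submitters' processing notes name bcl2fastq 2.17.1.14, Salmon and the build GRCm38. The sources used here do not give the Salmon version or the annotation. Symbols and positions came from GENCODE M21.

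The 16899 genes that averaged 0.5 FPKM or more were fitted with limma 3.58.1 (R 4.3.3, trend and robust options) on log2(FPKM + 1). Genotype was the single term, and p-values were adjusted by Benjamini-Hochberg over all genes fitted. FPKM holds no counts, so fragments were approximated from the steps of low values on genes with 1 transcript of at least 2 kb. Up to 76.9% of these values lay within 0.1 of a whole number of steps, so fragment numbers are approximate. Nothing says that libraries came from separate embryos, so p-values reflect the spread of these libraries, part of which may be technical.

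The members and lists were chosen with earlier results of these data known. From each list the called members and the 2 with the smallest p are named, with the 3 most abundant nerve and Schwann cell genes and the 5 nearest profiles of Cck and Penk. Of these, a few are not reported here. Other genes were named after their values were seen. Alternatives covered the pseudocount, filter, scaling, moderation, replicate block and leaving out each library.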

Additional observations from a re-analysis of the deposited data

How the results depend on the processing

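With a pseudocount of 0.1 the log2 difference of Cck was 1.64. Leaving out single libraries gave 1.07 to 1.39 for Cck and -0.76 to -0.53 for Penk. Oprm1 lay between -0.16 and 0.0041 when single libraries were left out and changed sign without knockout library 3 (0.0041, adjusted p = 0.991), and its adjusted p lay between 0.645 and 0.991 over all settings. No receptor and no pathway gene was called under any of the 12 settings. Cckbr, Oprk1 and the pathway genes below the filter could enter the fit without a filter alone, so elsewhere they could not be called. The number of genes called lower (102) was 45 to 96 when single libraries were left out, with 45 without wild-type library 2 and 53, 46 and 48 without knockout library 1, 2 or 3. The number called higher (22) was 7 to 51 when single libraries were left out, with 7 without wild-type library 2, 51 without wild-type library 3 and 13, 11 and 10 without knockout library 1, 2 or 3. It was 12 when libraries were rescaled to equal sums. These fits use fewer samples where a library is left out, and for rescaling the cause was not tested. With the replicate number as a block, 30 genes were called lower and 2 higher, and Wwtr1 (adjusted p = 0.108), Sfrp1 (0.0559) and Acta2 (0.127) lost their calls. Wwtr1 also lost its call when libraries were rescaled to equal sums (0.0516). Deviations of same-numbered libraries had correlations of 0.02, -0.04 and 0.05, and those of differently numbered libraries lay between -0.09 and 0.08. Whether the numbers pair the samples cannot be told from these values or from the labels. Depth limits Cckbr and Oprk1, which rest on at most about 7 fragments in a library.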
